A study of Mus musculus with 10 samples.

Results

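The wild-type profile of mouse forelimb-bud ectoderm at E9.75, a stage named in days of embryonic development, was taken from 3 of the 10 RNA samples of a study of the transcription factors Sp8 and Sp6. The 3 were chosen by their labels alone, as the wild-type (WT) littermates of embryos lacking both genes, and no knockout sample enters any value. The other samples are 3 Sp8 and Sp6 double knockouts of the same day and, at E10.5, 2 Sp6 knockouts and their 2 WT littermates. Buds were held on ice in 0.25% trypsin for 20 min, the ectoderm was lifted off with fine forceps, and that of about 2 forelimb buds was pooled for each replicate. RNA was amplified with a full-length low-input kit (SMART-Seq v4) and made into libraries by tagmentation (Nextera XT). The labels state neither the strain nor whether the replicates came from separate embryos or litters. They carry no numbers that match the table's columns, so the libraries are called WT 32, WT 53 and WT 56 after the columns. A single group holds no contrast, so the values below are levels and their spread, with no test.

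The limb ectoderm is the epithelial sheet around the bud. Along the distal edge it forms a thickening, the apical ectodermal ridge, whose FGF signals keep the mesenchyme beneath growing, while dorsal ectoderm patterns that mesenchyme through Wnt7a and ventral ectoderm is marked by En1. WNT and BMP signals within the sheet control ridge formation, and Sp6 and Sp8 are zinc finger transcription factors that the ridge needs. Trp63 is the master regulator of stratified epithelium, and Epcam and Cdh1 are cell-surface adhesion proteins of epithelia.

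The deposited values are whole-number counts per gene, with totals of 86737555 in WT 32, 64432348 in WT 53 and 87040786 in WT 56. Levels are given as CPM, each gene's count relative to its library's total, with library totals scaled by the trimmed mean of M-values (TMM), always in the order WT 32, WT 53, WT 56. Since longer transcripts collect more counts, genes are ranked against each other only by RPKM, the same value per kilobase of exon, given as mean ± SD over the 3 libraries (n = 3). Detected means at least 1 CPM in each library. By that rule 11558 of 21872 protein-coding genes (52.8%) were detected. Counts of detected members of every list below stand beside that share, and in short lists a few genes decide the difference. In a bulk sample, fewer cells of a type and less RNA per cell cannot be told apart.

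All 8 genes that mark this tissue were detected, and their values by library are shown in the plot of markers. Positions are on GRCm38 as GENCODE gives them. Fgf8 (chr19:45736798-45742915), the principal ridge signal, stood at 1183, 1184 and 1389 CPM. Its 3 values lay within 1.17-fold, with WT 56 on top. Epcam reached 569.5, 622 and 627 CPM, with the smallest ratio of highest to lowest library of the 8. Trp63 was at 295, 266 and 346 CPM. Cdh1, which encodes E-cadherin, was at 271, 211 and 364 CPM, so that WT 56 held the most and WT 53 the least of both genes.

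Sp6 (chr11:97013394-97024734) was at 229, 306 and 320.4 CPM, lowest in WT 32. Of its 3841 exon bases, 3329 overlap the gene Gm11532, and since the library kit does not keep strand, reads of that pair cannot be separated. Sp8 (chr12:118846329-118852576) was at 34.2, 42.3 and 31.3 CPM. Wnt7a, the dorsal signal, stood at 114, 161 and 136 CPM and, like Sp8, was highest in WT 53. En1, the ventral marker, varied 1.98-fold, at 16.1, 25.1 and 12.7 CPM, again with WT 53 on top.

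Per length, Fgf8 ranked 16 among all protein-coding genes at 927 ± 88 RPKM, and Epcam ranked 149 at 276 ± 14.5. The next ranks were 839 for Sp6, 1044 for Cdh1, 1520 for Wnt7a and 1820 for Trp63. The ranges of Sp6 and Cdh1 overlapped, at 74.2 ± 12.8 and 61.6 ± 16.9 RPKM, but Sp6 was the higher of the pair in each library. The same held for Wnt7a over Trp63, at 43.3 ± 7.39 and 36 ± 4.87, by as little as 36.1 against 35.2 RPKM in WT 32. Sp8 and En1 came last, at ranks 5531 and 5905. At 7.88 ± 1.25 and 6.84 ± 2.44 RPKM these neighbours did not differ beyond their spread, and En1 was the higher of the pair in WT 53.

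**Figure D1:**
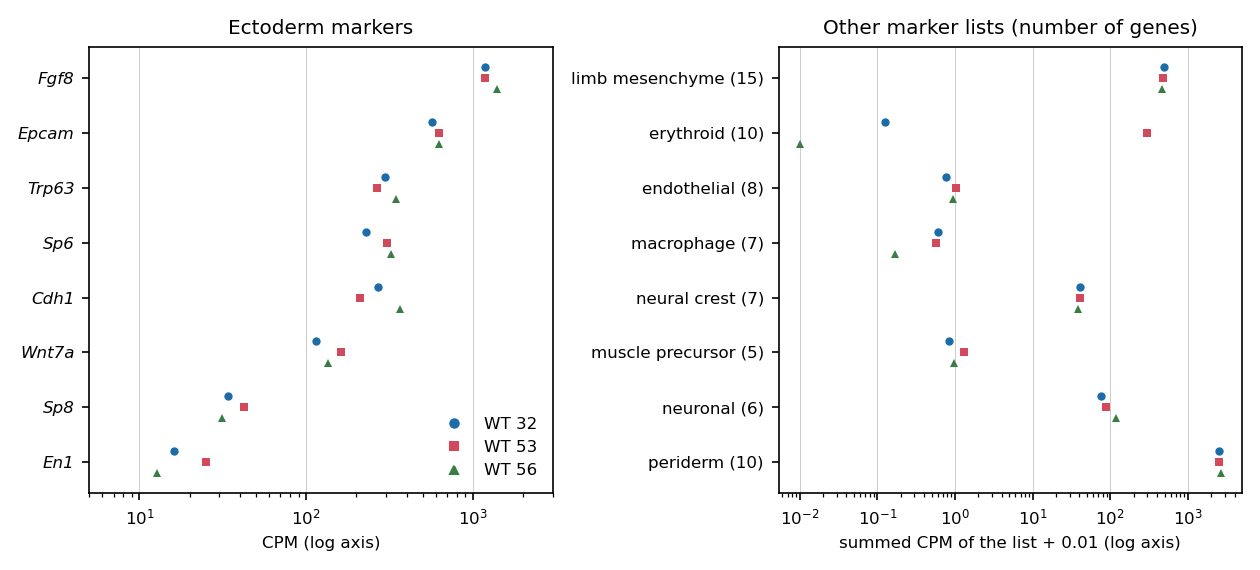
Left, CPM (log axis) of the 8 ectoderm markers in each of the 3 WT libraries, 1 point per library. Right, summed CPM plus 0.01 (log axis) of marker lists of other cell types, with the number of genes in brackets: the erythroid list reached 295 CPM in WT 53 and at most 0.116 in the others, while the endothelial list stayed at or below 1.02 CPM in each.

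Markers of blood vessels and immune cells were at or near 0. The 8 endothelial genes summed to 0.754, 1.02 and 0.929 CPM, with Cdh5 and Kdr, defining genes of endothelium, at 0 counts. The 7 macrophage genes summed to 0.603, 0.557 and 0.16 CPM, with Adgre1, Fcgr1, Ptprc, C1qa and Cx3cr1 at 0. A count of 0 over the 3 libraries allows up to 3 counts, or 0.0126 CPM, for counting error only. The 5 muscle precursor genes summed to at most 1.28 CPM.

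Other lists rested on a few genes that ectoderm may also express. Of the 7 neural crest genes, which summed to between 38.8 and 40.7 CPM, Erbb3 alone gave 34.1, 34.2 and 34.2 CPM, and Foxd3 was at 0. Of the 6 neuronal genes, Tubb3 gave 71.4, 85.3 and 116 CPM. Isl1 was the other one detected, at 2.26, 2.29 and 1.82 CPM, Elavl4 was at 1.3, 1.52 and 0.963 CPM, and Elavl3 was at 0. The 10 genes listed for periderm, the outermost embryonic epithelium, summed to 2481, 2543 and 2657 CPM with 7 detected. Most of that sum came from genes shared with other epithelia, such as Cldn6 and Krt18, while Krt4 was at 0.

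Erythroid RNA set WT 53 apart, since the 10 listed genes summed to 0.116, 295 and 0 CPM. Hbb-y, an embryonic beta-like globin, was at 0, 77 and 0 CPM. Hba-a1, an alpha globin, was at 0, 69.9 and 0 CPM, though its reads may be shared with the near-identical copy Hba-a2. Sex-linked RNA also set WT 53 apart: Xist, transcribed from the inactive X chromosome, was at 0.267, 31.9 and 0.711 CPM. The Y-linked genes Ddx3y, Kdm5d, Eif2s3y and Uty were at 0 in WT 53 and between 15.6 and 29.7 CPM in the others, with Ddx3y at 29.7, 0 and 26.6 CPM. The part of either difference in other values of WT 53 was not tested.

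Some limb mesenchyme genes were found in all 3 libraries and others mainly in WT 32. The 15 listed genes summed to 485.6, 484 and 462.7 CPM, and 6 of them were detected. Col1a2, a chain of type I collagen, gave the largest part of each sum at 204, 309.5 and 267 CPM. Its partner chain Col1a1 was lower per length, at 1.61 ± 0.254 RPKM against 20.9 ± 4.27. The homeobox gene Meox1 was at 52.6, 78.5 and 69.5 CPM, and Pdgfra, a PDGF receptor gene, at 68, 36.6 and 94.7 CPM. WT 53 was the highest library for Col1a2, Col1a1 and Meox1 but the lowest for Pdgfra. Prrx2, a homeobox gene, was detected in each library too, at 49.5, 36.5 and 18.6 CPM, highest in WT 32.

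Prrx1, a homeobox gene of early limb mesenchyme, was at 29.1, 1.58 and 0.413 CPM. Tbx5, the forelimb T-box gene, was at 13, 2.75 and 0.0573 CPM. Fgf10, the mesenchymal signal to the ridge, was at 4.65, 0.232 and 0 CPM. Twist1, which was detected in all 3, and Lhx9, Hoxd11 and Meox2 likewise lay over 2-fold higher in WT 32 than in both others, from 8.05 to 15.3 CPM there. The part of mesenchyme RNA in other values of WT 32 was not tested.

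Of all protein-coding genes Ftl1, the ferritin light chain, led per length at 3155 ± 261 RPKM, followed by Ubb (ubiquitin), Marcksl1 and Tuba1b (a tubulin). Ldha, Eno1 and Pkm, enzymes of glycolysis, were among the first 10 with Eif5a, Mif and Mdk. Eno1 reached 6753, 7390 and 6712 CPM. Several of these genes have near-identical copies or pseudogenes, so the split of reads among them is uncertain. The 100 leading genes of each library took 16.2%, 16.7% and 15.8% of its counts.

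Ligands made up 0.85% to 0.931% of the counts. Of 219 listed genes, 99 (45.2%) were detected, against 52.8% of all protein-coding genes. No count was found for 52 of the 219, beside 6126 of all 21872 protein-coding genes. Mdk, the heparin-binding growth factor midkine, led with 1538, 1670 and 1550 CPM, or 1198 ± 55 RPKM. Fgf8 came next, then Wnt6 at 305 ± 42.3 RPKM and Pdgfa, a ligand of the PDGF receptor, at 204 ± 33. These 4 held ranks 1 to 4 in each library, which the plot of class leaders shows. The neighbours Ptn, a relative of Mdk, and Bmp4 did not differ beyond their spread, at 114 ± 10.7 and 112 ± 19.2 RPKM. Cxcl14, Bmp7, Igf2 and Efna1 completed the first 10, from 86.7 ± 33.6 to 65.5 ± 12.1 RPKM. Exons of Igf2 overlap Igf2os and Gm49394 by 3694 bases, and those of Pdgfa overlap another gene by 813, so reads may be shared there.

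Of 18 FGF ligands, Fgf8 among them, 7 (38.9%) were detected, against 45.2% of ligands and 52.8% of all protein-coding genes. No count was found for 4, beside 52 of 219 ligands and 6126 of 21872 protein-coding genes. Fgf4, another ridge FGF, was at 36.4, 11.9 and 70.6 CPM. Its 5.93-fold range was the widest of the ligands with a mean of at least 5 CPM, and WT 53 was the low library. Fgf17 was steadier at 16, 14.1 and 15.4 CPM, and Fgf9 stood at 13.3, 15.1 and 19.3 CPM, which are also ridge genes. Per length Fgf4 and Fgf17 overlapped within their spread, at 12.4 ± 9.23 and 8.97 ± 0.577 RPKM.

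Of 19 WNT ligands 14 (73.7%) were detected, against 45.2% of ligands. Wnt6 led at 592, 772 and 642 CPM, with WT 53 highest. After it came Wnt7a, Wnt7b, Wnt4, Wnt5a and Wnt3, from 43.3 ± 7.39 down to 30.3 ± 3.91 RPKM. The range of each overlapped that of its neighbour, though Wnt5a was above Wnt3 in each library. Wnt3, the ectodermal WNT that the ridge requires, was at 91.8, 81.8 and 106 CPM. Wnt7b was lowest in WT 53, at 224, 135 and 248 CPM, and Wnt11 highest there, at 31, 64.5 and 47.7 CPM. Wnt3a was not detected, at 1.34, 0 and 0.321 CPM. Of the 4 R-spondins, which amplify WNT signals, Rspo2 led at 66.9, 63 and 98 CPM.

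BMP ligands centred on Bmp4 and Bmp7. Bmp4 was at 216, 239.5 and 299.6 CPM and Bmp7 at 297, 327 and 352 CPM, both highest in WT 56. Bmp2 was lower per length, at 7.42 ± 2.17 RPKM against 81 ± 6.87 for Bmp7. Of 21 BMP and GDF genes 9 (42.9%) were detected, near the 45.2% of ligands.

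Hedgehog and EGF ligands were scarce. None of the 3 hedgehog genes was detected: Shh, the signal of posterior limb mesenchyme, was at 0.232, 0 and 0 CPM. Of 11 EGF-family genes only Tgfa was detected, at 3.67, 6.51 and 5.86 CPM. Jag2, a NOTCH ligand known from the ridge, was at 263, 259.5 and 343 CPM. It stood above Dll1 and Jag1 per length, at 41.4 ± 6.76 RPKM against 4.02 ± 1.06 and 3.91 ± 1.54. All 8 ephrins, the membrane-bound ligands of Eph receptors, were detected, led by Efna1 at 97.2, 141 and 121 CPM. Of 37 chemokines 25 had no count, beside 52 of 219 ligands and 6126 of 21872 protein-coding genes. Cxcl14, at 208, 89.6 and 178 CPM, was lowest in WT 53.

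**Figure D2:**
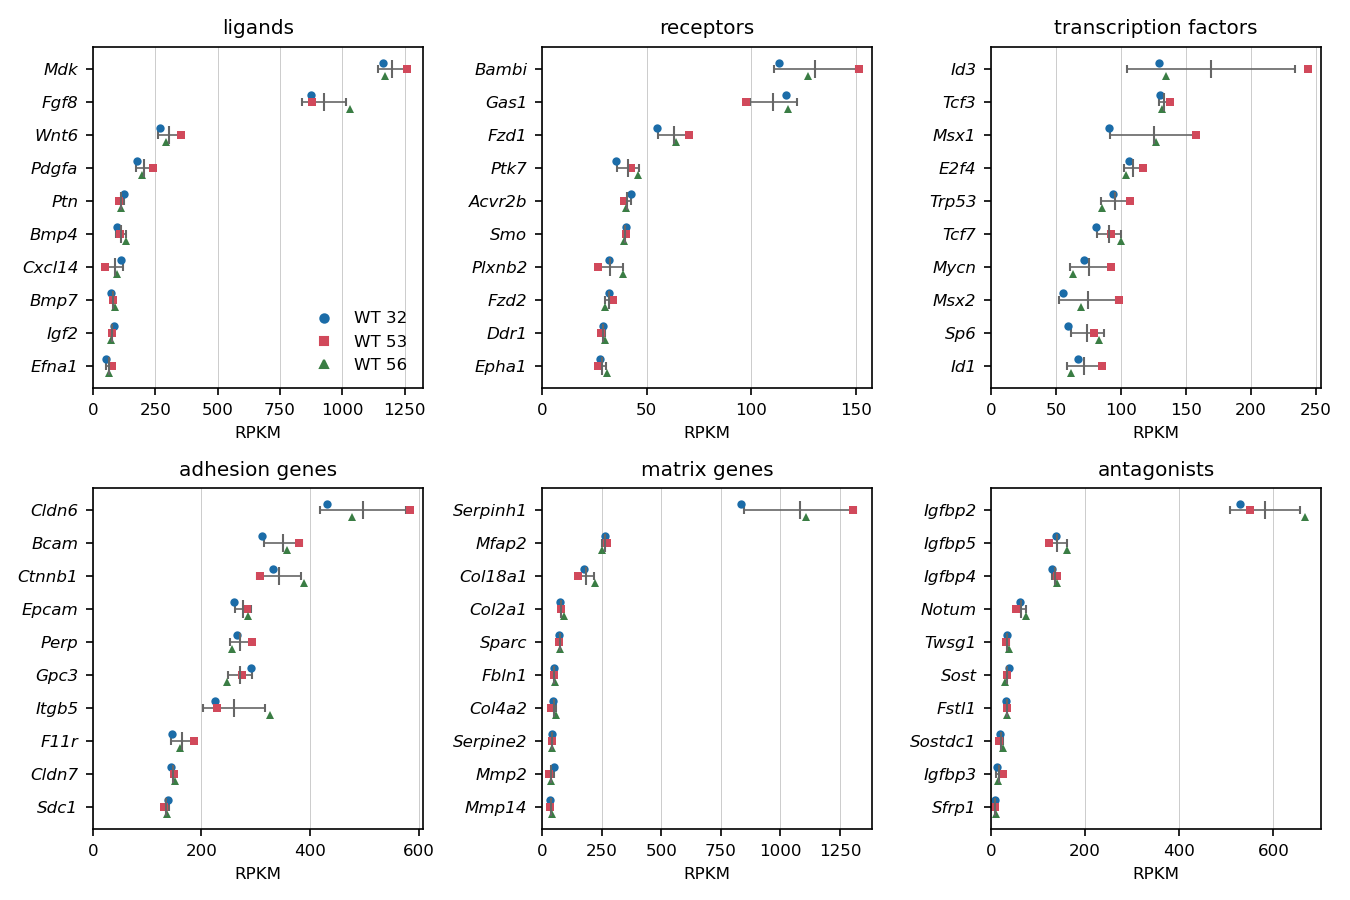
RPKM (linear axis) of the 10 leading genes of 6 classes in the 3 WT libraries. Points are libraries, and the bar with caps is the mean ± SD. On this scale Mdk and Fgf8 lead the ligands, Bambi and Gas1 the receptors, Serpinh1 the matrix genes, and WT 53 is the highest library for Id3, Msx1 and Msx2.

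Secreted antagonists were led by binding proteins of insulin-like growth factors, which held 79.3% of the summed RPKM of the class. Of 35 antagonists 19 (54.3%) were detected. Igfbp2 led at 978, 1015 and 1233 CPM, or 582 ± 74.5 RPKM. Igfbp5 and Igfbp4 followed at 141 ± 19.2 and 136 ± 6.74 RPKM, not apart beyond their spread. Igfbp3 was highest in WT 53, at 37.7, 76.5 and 43.3 CPM.

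Notum, an enzyme that inactivates WNT proteins, was the leading WNT antagonist at 150.4, 126 and 178 CPM, though 918 of its exon bases overlap other genes. Dkk1, which blocks WNT co-receptors, was at 14.1, 25.8 and 20.1 CPM. Sfrp1 and Dkk1 overlapped within their spread, at 9.03 ± 0.835 and 8.24 ± 2.41 RPKM. On the list of BMP and activin antagonists Twsg1, Sost and Fstl1 were nearly equal, at 34.3 ± 3.56, 34.3 ± 4.28 and 33.3 ± 1.93 RPKM. Sost was placed on that list although, like Dkk1, it blocks WNT co-receptors. Sostdc1, a modulator of BMP and WNT signals, was at 35.7, 30.3 and 44 CPM.

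Receptors had lower leaders than ligands but a like median. The detected members had a median of 4.03 RPKM, against 3.91 for ligands and 7.18 for all detected genes. Of 173 receptors 95 (54.9%) were detected. Bambi, a decoy receptor that dampens BMP and TGF-beta signals, led with 573, 767 and 644 CPM. Gas1, a hedgehog co-receptor, was at 345, 289 and 347 CPM, with 589 of its exon bases shared with Gm48488. Bambi and Gas1 overlapped within their spread, at 130.4 ± 19.4 and 110.5 ± 11.2 RPKM, and Gas1 ranked first in WT 32. Fzd1, a WNT receptor, held the third rank in each library at 229.9, 294 and 268 CPM. Ptk7, Acvr2b and Smo followed without differing beyond their spread, at 41.3 ± 5.23, 40.6 ± 1.77 and 39.8 ± 0.464 RPKM.

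Fgfr2, whose epithelial form receives mesenchymal FGFs, led the FGF receptors at 210.5, 170.1 and 289 CPM. Fgfr1, the receptor usual in mesenchyme, was at 45, 36.6 and 38.8 CPM. Per length Fgfr2 stood above Fgfr1, at 21.6 ± 5.87 against 4.07 ± 0.441 RPKM. Fgfr3 was low in WT 53, at 11.4, 3.71 and 11.8 CPM, and Fgfr4 was below 1 CPM. Of 10 frizzleds 8 (80%) were detected, against 54.9% of receptors, led after Fzd1 by Fzd2 at 117, 124 and 110 CPM. The WNT co-receptor Lrp6 was at 39.4, 26.5 and 41.7 CPM. Rnf43, a ubiquitin ligase that removes frizzleds from the surface, was lowest in WT 53 at 17.5, 8.6 and 25.6 CPM.

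All 6 hedgehog receptor genes were detected, against 54.9% of receptors, although none of the hedgehog ligands was. Smo, the signal transducer, was at 225, 226 and 221 CPM, a range of only 1.02-fold. Ptch1, a receptor that is itself a hedgehog target, was at 39.6, 31.8 and 50.4 CPM. Among BMP receptors the type I gene Bmpr1a was at 108, 83.8 and 106 CPM, and the type II gene Acvr2b at 167, 154 and 158 CPM. Notch1 led the NOTCH receptors at 75.7, 41 and 75.9 CPM, and Notch2 ranged 6.02-fold, at 12.1, 2.02 and 12.2 CPM. In both NOTCH genes WT 53 was low and the other libraries were nearly equal. Of the ErbB receptors Erbb2 led at 121, 76 and 166 CPM. Edar, the ectodysplasin receptor of skin appendages, was at 41.1, 53.4 and 70.8 CPM.

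Transcription factors took 1.66% to 1.71% of the counts, and 373 of 726 (51.4%) were detected. Id3, an inhibitor of bHLH factors that responds to BMP signals, led at 231, 438 and 241 CPM. The homeobox genes Msx1 and Msx2 respond to BMP signals as well. Msx1 was at 282, 488 and 394 CPM and Msx2 at 181, 322 and 228 CPM, so WT 53 was the high library for all 3 genes. Tcf3, a widely expressed bHLH factor, was even at 524, 556 and 532 CPM and ranked first in WT 32. The first 4, Id3, Tcf3, Msx1 and E2f4, ran from 169 ± 65 to 109 ± 6.73 RPKM; each neighbouring pair changed places in at least 1 library, while Id3 was above E2f4 in each. Trp53, Tcf7, Mycn, Msx2, Sp6 and Id1 followed, from 95.4 ± 10.7 to 71.3 ± 12.7 RPKM.

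All 9 SP factors were detected, against 51.4% of transcription factors. After Sp6 came Sp3 at 13.1 ± 2.18 RPKM and Sp2 at 12 ± 0.752, and then Sp8 at 7.88 ± 1.25. Sp3 and Sp2, which are widely expressed, did not differ beyond their spread. Sp9, which the ridge also expresses, was last per length at 2.73, 3.76 and 4.68 CPM, and Sp5, a WNT target, was at 1.3, 2.58 and 3.39 CPM. Of the 17 related KLF factors 11 were detected, led by Klf15 at 22.8, 29.5 and 28.6 CPM.

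SP and KLF factors bind the GC box, so the upstream sequence of the highest ranked gene with a usable window in 5 classes is shown with that motif. Each is the 250 bases before the start of transcription in RefSeq on GRCm38.p6, written 5′ to 3′ on the gene's strand, with every GGGCGG or CCGCCC in capitals. Wnt6 (chr1:74771642-74771891, plus strand) stands for the ligands and Ptk7 (chr17:46629505-46629754, minus strand), a WNT co-receptor, for the receptors. Msx1 (chr5:37824586-37824835, minus strand) stands for the transcription factors, Epcam (chr17:87635729-87635978, plus strand) for adhesion and Serpinh1 (chr7:99353240-99353489, minus strand) for the matrix genes.
Wnt6: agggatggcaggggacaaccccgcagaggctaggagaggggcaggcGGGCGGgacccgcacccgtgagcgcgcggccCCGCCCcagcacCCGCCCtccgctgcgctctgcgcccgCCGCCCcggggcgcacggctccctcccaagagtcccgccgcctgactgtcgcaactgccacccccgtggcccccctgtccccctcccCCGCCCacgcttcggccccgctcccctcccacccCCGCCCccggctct
Ptk7: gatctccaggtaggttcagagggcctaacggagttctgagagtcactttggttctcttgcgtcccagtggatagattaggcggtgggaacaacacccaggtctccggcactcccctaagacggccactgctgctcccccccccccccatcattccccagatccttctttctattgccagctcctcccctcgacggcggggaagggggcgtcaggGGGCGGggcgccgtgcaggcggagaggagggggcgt
Msx1: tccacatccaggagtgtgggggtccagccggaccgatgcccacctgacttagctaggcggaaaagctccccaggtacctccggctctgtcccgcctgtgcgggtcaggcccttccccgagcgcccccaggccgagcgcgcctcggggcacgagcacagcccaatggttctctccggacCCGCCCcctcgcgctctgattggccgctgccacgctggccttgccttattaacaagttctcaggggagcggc
Epcam: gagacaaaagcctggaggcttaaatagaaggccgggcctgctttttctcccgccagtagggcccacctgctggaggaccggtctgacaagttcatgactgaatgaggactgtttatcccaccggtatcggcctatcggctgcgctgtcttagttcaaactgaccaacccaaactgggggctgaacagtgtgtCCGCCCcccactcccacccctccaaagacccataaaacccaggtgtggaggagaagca
Serpinh1: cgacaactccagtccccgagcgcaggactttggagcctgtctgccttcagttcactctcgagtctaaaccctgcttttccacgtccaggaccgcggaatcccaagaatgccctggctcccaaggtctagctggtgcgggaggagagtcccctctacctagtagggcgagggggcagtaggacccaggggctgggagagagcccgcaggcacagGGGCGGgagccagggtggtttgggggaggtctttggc
Wnt6 holds 6 such motifs, counted on both strands, and the others 1 each. Among 16852 windows of that length matched to protein-coding genes, 7449 (44.2%) held the motif. A window was matched for 77% of genes, below the 80% minimum, so a comparison of motif shares by level is void and none is given. A match describes the letters and says nothing of binding.

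All 6 DLX factors, homeobox genes of the ridge and other appendages, were detected, against 51.4% of transcription factors. Dlx2 led at 155, 190.4 and 149 CPM, and Dlx3 was at 114, 132 and 125 CPM. Dlx6 was lowest at 2.88, 1.85 and 2.34 CPM. The 4 TCF and LEF factors, which act on WNT signals in the nucleus, were all detected. Tcf7 led at 212, 242 and 262 CPM, and Lef1 was even at 108, 114 and 104 CPM. Of the TALE homeobox factors 16 of 18 were detected, with Meis1, a factor of proximal limb identity, at 145, 140.4 and 133 CPM.

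Regulators of surface epithelium were also present. Grhl3, a grainyhead factor of barrier epithelium, was at 159, 91.1 and 158 CPM, lowest in WT 53. Tfap2b, an AP-2 factor of ectoderm, was also low there, at 56, 19.4 and 40.9 CPM, whereas Tfap2c was at 38.1, 40.3 and 46.4 CPM. Tbx3 led the T-box factors at 55.3, 46.8 and 67.1 CPM. Snai2, known from epithelial to mesenchymal transition, was at 95.2, 104 and 113 CPM, and Snai1 at 2.84, 1.05 and 0.791 CPM. Of the PAX and paired-like genes 3 of 35 were detected, of the NKX genes 2 of 14 and of the forkhead genes 14 of 44, or 8.57%, 14.3% and 31.8% against 52.8% of all protein-coding genes.

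HOX genes encode position along the body axis and the limb. Of 39 genes 16 (41%) were detected, against 51.4% of transcription factors. The leading 3 per length were Hoxc8, Hoxc5 and Hoxc6, from 36.9 ± 8.88 to 19 ± 5.95 RPKM. Hoxc8 was at 95.2, 133 and 85.3 CPM. The 9 Hoxc genes summed to 229, 326 and 226 CPM, and the 10 Hoxb genes to 44.8, 58 and 51.5 CPM. For both clusters WT 53 was the high library.

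Hoxa and Hoxd genes showed another order of libraries. The 11 Hoxa genes summed to 89.7, 22.1 and 11.8 CPM, and the 9 Hoxd genes, none of them detected, to 64.4, 4.99 and 1.45 CPM. Most of the excess in WT 32 lay in paralog groups 9 to 13, which summed to 69.8, 4.84 and 0.803 CPM for Hoxa. The same groups of Hoxd summed to 58.1, 2.4 and 0.952 CPM. Hoxa10 was at 32, 1.28 and 0.608 CPM and Hoxa11, whose exons overlap Hoxa11os, at 19.5, 2.04 and 0 CPM. Groups 9 to 13 of Hoxc were level, at 38.3, 36.1 and 35.9 CPM. Prrx1 and Tbx5 had the same order of libraries as the Hoxa and Hoxd sums, and the part of mesenchyme RNA in these values was not tested.

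**Figure D3:**
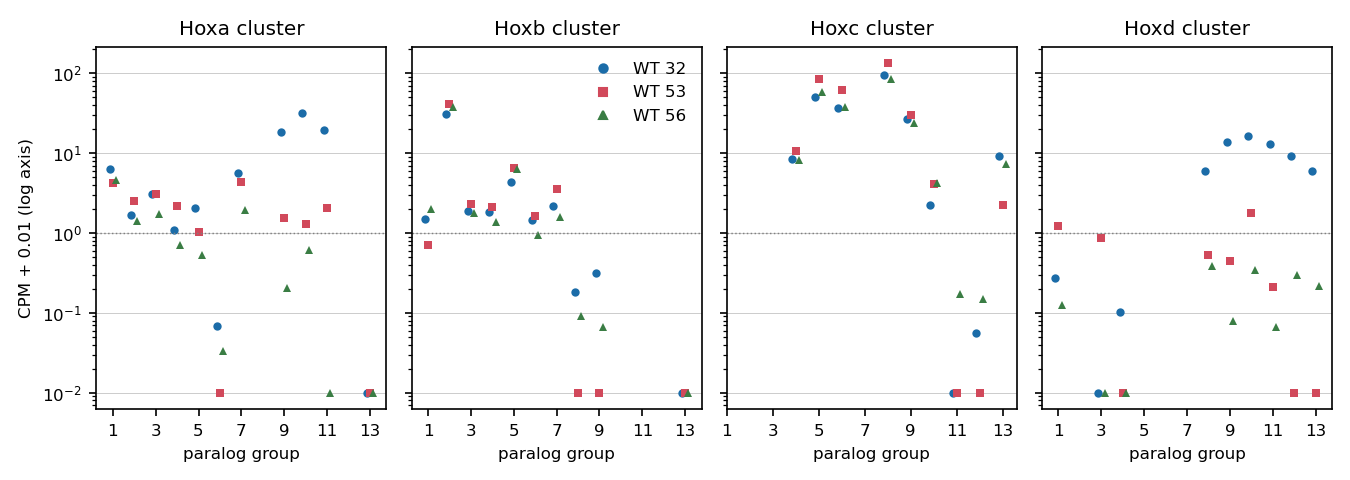
CPM plus 0.01 (log axis) of the HOX genes in each WT library, by cluster and paralog group; the dotted line marks 1 CPM. The 9 Hoxc genes sum to 229, 326 and 226 CPM, while Hoxa10 and Hoxd10 are high in WT 32 alone.

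Adhesion genes took 1.47% to 1.66% of the counts, and 117 of 255 (45.9%) were detected. Cldn6, a tight junction claudin, led with 742, 1006 and 820.4 CPM, or 498 ± 78.8 RPKM. Bcam, a laminin receptor, and Ctnnb1, which encodes beta-catenin, followed at 350.1 ± 34.9 and 343 ± 41 RPKM. That pair changed places between libraries and did not differ beyond its spread, and 782 exon bases of Ctnnb1 overlap other genes. Epcam, Perp, Gpc3 and Itgb5 came next, from 276 ± 14.5 to 259 ± 57.2 RPKM. Perp is a desmosome protein and Trp63 target, Gpc3 a heparan sulfate proteoglycan and Itgb5 an integrin subunit.

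Of 23 claudins 9 were detected, and 5 of these varied over 2-fold (55.6%), against 18.4% of adhesion genes and 4.94% of all genes with a mean of at least 5 CPM. They were Cldn4, Cldn23, Cldn8 and Cldn1, each lowest in WT 53, and Cldn9, highest there, with ratios of 2.02 to 2.78. Cldn4 was low in WT 53, at 208, 85.7 and 238 CPM, while Cldn7 was level at 282, 292 and 293 CPM. All 11 genes of tight junction scaffolds and JAMs were detected, led by F11r at 389, 495 and 429 CPM. Cadherins were led by Cdh3, or P-cadherin, at 312, 319 and 424 CPM. The ranges of Cdh3 and Cdh1 overlapped, at 80.2 ± 14.3 and 61.6 ± 16.9 RPKM, with Cdh3 the higher in each library. Cdh2, the N-cadherin of mesenchyme, was far lower at 6.15 ± 1.06 RPKM, and Cdh11 was mostly in WT 32, at 15, 2.91 and 1.02 CPM.

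Gap junction and cell-matrix genes were part of the profile as well. Gjb2, a connexin gene, was low in WT 53, at 104, 22.6 and 103 CPM, and so was its neighbour Gjb6, at 28.2, 4.61 and 25.3 CPM. Gja1, the widely expressed connexin 43 gene, was even at 734, 819.6 and 804 CPM. Of 26 integrin subunits 11 (42.3%) were detected, near the 45.9% of adhesion genes. They were led by Itgb5 at 799, 810.3 and 1156 CPM and Itga3, a laminin receptor subunit, at 303, 383 and 346 CPM. All 4 hemidesmosome genes, which anchor epithelium to its basement membrane, were detected.

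Keratins of simple epithelium and of the basal epidermal layer were found together. Of 49 genes 15 (30.6%) were detected, against 52.8% of all protein-coding genes. Krt18 led at 472, 516 and 529 CPM, and its partner Krt8 was at 366, 324 and 338 CPM. Krt5, of the basal layer, was at 320.4, 248 and 363 CPM. Per length Krt8 was above Krt5 in each library with no overlap of their values, at 175 ± 11.1 against 141 ± 26.4 RPKM. Krt14, the partner of Krt5, was at 89, 43.8 and 87.9 CPM and lower per length, at 41.8 ± 14.7 RPKM against 141 ± 26.4. Krt15 was low in WT 53 as well, at 18.6, 5.26 and 15.9 CPM. Krt10, of differentiated epidermis, was at 6.44, 4.78 and 5.56 CPM.

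Matrix genes took 0.996% to 1.18% of the counts, and 115 of 228 (50.4%) were detected. Serpinh1, a collagen chaperone, led at 2044, 3190 and 2704 CPM, or 1083 ± 235 RPKM. Mfap2, a microfibril protein, and Col18a1, a basement membrane collagen, held the next ranks at 263 ± 9.96 and 183 ± 36.5 RPKM. Col2a1, known from cartilage, led the fibrillar collagens at 702, 728 and 837 CPM. Col3a1, a collagen of connective tissue, was mainly in WT 32, at 31.1, 3.52 and 0.768 CPM.

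Basement membrane genes form short lists, whose detected shares stand beside 52.8% of all protein-coding genes and 50.4% of matrix genes. Of the type IV collagens 4 of 6 (66.7%) were detected, led by Col4a2 at 316, 251 and 393 CPM. Of the laminins and nidogens 9 of 13 (69.2%) were, led by Lamb1 at 213, 168 and 271 CPM. Nid1, which links laminin and collagen networks, differed in each library, at 15.4, 1.85 and 3.92 CPM. Of the perlecan, agrin and Fraser complex list 7 of 8 (87.5%) were detected. Frem2, of the Fraser complex that holds ectoderm to the tissue below, was at 109, 91.7 and 116 CPM, and Agrn at 204, 142 and 246 CPM.

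Log2 CPM of the 3 libraries correlated across 10265 genes with a mean of at least 5 CPM at r = 0.966 (WT 32 with WT 53), 0.98 (WT 32 with WT 56) and 0.965 (WT 53 with WT 56). The points are genes, which share each library's depth and are not independent. Among these genes 507 (4.94%) had a highest library over 2-fold above the lowest. The share was 9.76% for receptors (8 of 82), 11.5% for transcription factors (36 of 312), 12.1% for matrix genes (11 of 91) and 12.3% for ligands (9 of 73). It was 13.3% for antagonists (2 of 15), 18.4% for adhesion genes (19 of 103) and 40% for keratins (4 of 10), as the plot of shares by class shows. The median ratio of highest to lowest library was 1.25 over all genes and 1.31 to 1.46 in the classes. Classes were not matched to all genes by level. The median of detected members was below the 7.18 RPKM of all genes in every class but antagonists (9.03) and keratins (7.66). Some members, such as Hoxa10 and Col3a1, reached the mean of 5 CPM only through WT 32. Whether the classes vary more at equal level was not tested.

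**Figure D4:**
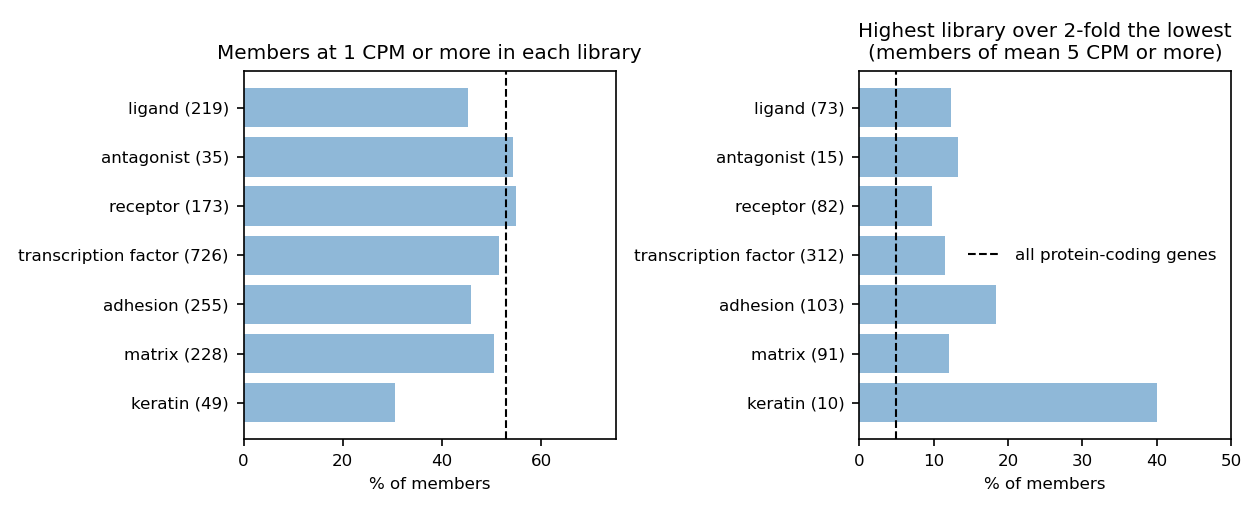
Left, the share of each class detected in each library; right, the share of members with a mean of 5 CPM or more whose highest library was over 2-fold the lowest. The dashed line is the share over all protein-coding genes, 52.8% and 4.94%, and the numbers in brackets are members counted.

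WT 53 gave most of the wide spread. It lay over 2-fold below both other libraries in 181 genes (1.76%), against 11 for WT 32 and 23 for WT 56. Without WT 53, 88 genes varied over 2-fold, against 366 without WT 32 and 350 without WT 56. The ligands among the 181 were Fgf4, Wnt9b, Wnt10b, Slit3 and Sema5a, and the receptors Notch2, Kit, Fgfr3, Rnf43 and Plxna3. The 15 transcription factors included Bcl11b, a zinc finger factor of ectoderm, at 52.8, 22.9 and 59.1 CPM, and Irx4 at 33.9, 15.5 and 37.5 CPM. The keratins Krt14 and Krt15 and the adhesion genes Cldn4, Gjb2 and Gjb6 belonged to the same 181.

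The genes low in WT 53 were longer than others, with a median union exon length of 6754 bases against 4586 for all 10265 genes. Their median level was also lower, at 10.8 against 41.3 CPM. Ordered by length into 4 equal groups, the median ratio of WT 53 to the mean of the others went from 1.07 in the shortest to 0.831 in the longest genes. The number of genes low in WT 53 went from 21 to 83 over the same groups. In WT 56 the median ratio went the other way, from 0.929 to 1.1, as the plot by length shows. The part of this trend in the value of any single gene was not tested.

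**Figure D5:**
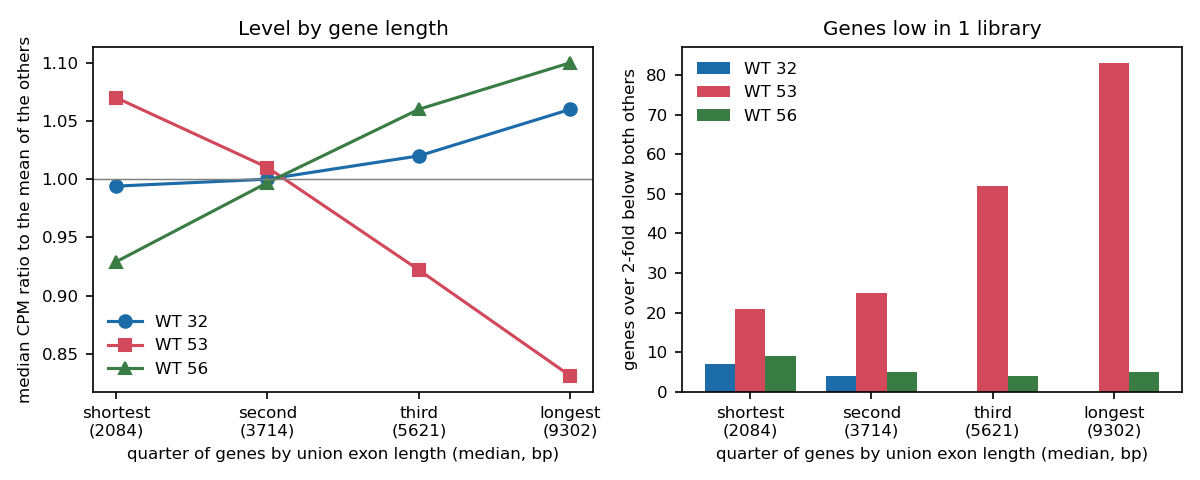
Left, the median over genes of each library's CPM divided by the mean of the others, in 4 equal groups of genes by union exon length; right, the number of genes over 2-fold below both other libraries. The median ratio of WT 53 is 1.07 for the shortest genes and 0.831 for the longest, and 83 of its low genes are in the longest group.

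WT 32 lay over 2-fold above both others in 36 of 10265 genes with a mean of at least 5 CPM (0.351%). The 11 transcription factors among them, of 312 with that mean, were Hoxa9, Hoxa10, Hoxa11, Hoxd10, Prrx1, Tbx5, Twist1, Lhx2, Lhx9, Shox2 and Mecom. All 11 lay below 5 CPM in both other libraries, the highest there being Twist1 at 3 CPM in WT 53. They passed the filter only through WT 32, so their number says nothing of transcription factors as a class. Shox2, a homeobox gene of proximal limb mesenchyme, was at 15.9, 0.835 and 0.424 CPM, and Lhx2 at 20.04, 2.37 and 0.825 CPM. The others in the listed classes were the matrix genes Col3a1, Nid1 and Fbn2, the WNT antagonist Sfrp2 and the cadherin gene Cdh11. Col3a1, Nid1 and Cdh11 also reached that mean only through WT 32. Fbn2 and Sfrp2 were above 5 CPM in each library, with Sfrp2 at 16.1, 7.03 and 7.17 CPM. WT 53 lay above both others in 22 genes and WT 56 in 9. Over protein-coding genes with a mean of at least 10 CPM, the 10 of widest spread were 5 globins, the 4 Y-linked genes and the predicted gene Gm21981. The 5 globins had counts in WT 53 alone, so they reached that mean only through it.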

How the data were processed

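RNA of 3 WT samples was measured by RNA-seq. The values are the deposited counts per gene, whole numbers and not normalized as the file shows. The submitters' processing notes name FastQC, fastp, HISAT2, StringTie, Cufflinks and DESeq2 and the builds GRCm38 and mm10; their roles and versions, and the counting step, were not given in the sources used here. In each library genes with 1 count outnumbered those with 2 (1487 against 734 in WT 32).

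Of 55401 identifiers, 55141 (99.53%) matched GENCODE M21, which gave names, positions and union exon lengths. There were 110 duplicated symbols, and the 3 further columns beside the WT ones were not used. Counts were scaled by TMM in edgeR 4.0.16 (R 4.3.3) over the 3 WT columns. DESeq2 1.42.0 size factors were an alternative. The TMM step and the call of genes over 2-fold above both other libraries were tested on simulated data. Levels, ranks and figures used Python 3.11.15, pandas 2.3.3, numpy 2.4.6, scipy 1.17.1 and matplotlib 3.10.9. With totals of 64432348 to 87040786, 1 count was worth at most 0.0155 CPM. Reads carry no molecular identifiers, so intervals would cover counting error only.

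Named were the 8 markers, the 10 leading genes overall and of each class by RPKM, the first 3 of each family, the 5 of widest spread in each class (mean of 5 CPM or more) and the 10 of widest spread over all genes (mean of 10 CPM or more). Other genes were named for their known role, with their values already seen, and a few genes are not reported here. Members and lists were chosen with earlier results of these data known. Upstream windows were printed for the highest ranked gene of a class whose window lay outside annotated exons and began within 10 bases of the annotated start. No knockout sample was used, and no test was made. The alternatives were other detection levels, level filters, folds, lengths and scalings, and each library left out in turn.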

Additional observations from a re-analysis of the deposited data

How the results depend on the processing

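Of 148 recomputed values of 25 results, 129 moved by at most 1.5 times or within the spread. For the lists of the first 10 genes of a class the value was the number of genes kept. A changed leader or the loss of a few genes therefore still counted among the 129. Detected genes numbered 12125 at 0.5 CPM and 10903 at 2 CPM. The 507 genes that varied over 2-fold became 1361 at a mean of 1 CPM or more, 4513 with no filter on level, 142 at a mean of 20 CPM or more and 130 over 3-fold; leaving out a library gave 88 (WT 53) to 366 (WT 32), where fewer libraries by construction narrow the range. At a mean of 1 CPM or more, 109 genes were above both others in WT 32, 111 in WT 53 and 48 in WT 56, and 40, 507 and 80 were below both. At a mean of 20 CPM or more the numbers above both were 8, 5 and 1, and below both 5, 38 and 3. So WT 53 held the most low genes at each filter run, while WT 32 did not hold more high genes than WT 53 at a mean of 1 CPM or more. Among protein-coding genes outside the mitochondrial genome the 100 leading genes took 16.67% in WT 32 and 17.16% in WT 53. Every class kept 8 to 10 of its first 10 genes under each alternative; without division by length Tcf3 led the transcription factors and Ctnnb1 the adhesion genes. No paired analysis was possible because a single group was described and no test was made. Group size of 3 limits every SD. Whether WT 32 and WT 56 come from separate embryos is not stated, so part of the spread may be technical; WT 53 differed from both in sex-linked RNA.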
